A study of Mus musculus with 12 samples.

Results

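Vesicles fuse with their target membrane when a vesicle SNARE protein (a Vamp, or synaptobrevin) zips together with SNARE proteins of the target membrane (a syntaxin, Stx, and a Snap25-type protein). Syntaxin binding proteins (Stxbp) hold or release the syntaxin, synaptotagmins (Syt) sense calcium at the vesicle, and synapsins (Syn) tether vesicles in a reserve pool. Neurons and endocrine cells use a small set of isoforms for calcium-triggered release, while other isoforms serve the Golgi, endosomes and constitutive secretion in every cell. Pinealocytes, the melatonin-producing cells of the pineal gland, are related to retinal photoreceptors and carry small synaptic-like vesicles.

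The genes described here are those whose symbol names a numbered synaptotagmin, synapsin, Snap, Vamp, syntaxin or syntaxin binding protein. They number 50 of 18193 genes with a symbol on the array: 16 synaptotagmins, 3 synapsins, 5 Snap genes, 7 Vamp genes, 14 syntaxins and 5 syntaxin binding proteins. They were represented by 122 probe sets, and 35 of the genes had more than 1; the brightest was used. By function 21 were placed among isoforms of neuronal and endocrine exocytosis, 23 among isoforms of general membrane trafficking, and 6 in neither class. Of the 50 genes, 45 passed the filter on dim signals; Syt5, Syt8, Syt10, Syt16 and Stx19 did not. A symbol match does not make a SNARE protein, since Snap91 encodes the clathrin adaptor AP180.

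RNA came from pineal glands of control mice of strain 129sv and of Crx-/- mice labelled with the same strain, all more than 2 months old, of both genders and kept in a 12 h light and 12 h dark cycle. Crx is a homeobox transcription factor of photoreceptors and pinealocytes, and the deletion is present in every cell of the Crx-/- animals. Glands were taken at Zeitgeber time 6 (ZT6, day) and ZT20 (night), and each of the 4 groups has 3 arrays labelled as biological replicates, 12 Affymetrix mouse arrays in all. The labels do not state how many glands made up a replicate. The comparisons therefore ask which vesicle fusion genes depend on genotype, by day and by night, and which change with time in each genotype.

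One array, labelled control ZT20 replicate 3, did not resemble its group mates. Across genes it correlated at 0.915 to 0.925 with the other control ZT20 arrays and at 0.97 to 0.989 with the Crx-/- ZT20 arrays. It was kept under its label, and results that rest on it are given with and without it. The array was singled out by its likeness to the Crx-/- ZT20 arrays in these same data. Leaving it out therefore tends to enlarge the night genotype difference and shrink the spread, with fewer control arrays. Adjusted p values without it, here and below, show how far a result rests on it and are no independent test. Crx itself gave a log2 signal of 12.66 to 12.75 in control and 12.56 to 12.87 in Crx-/- glands by day, and 13.02 to 13.27 against 12.93 to 13.06 by night. The probe set's place relative to the deleted part is not known here, so this signal does not check the genotype labels. The 2% trimmed mean of the deposited signals ranged from 378.7 to 698.3 per array; the number of arrays limits the precision.

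Markers of other cell types also differed between the genotypes. Summed signals of 8 meningeal fibroblast markers were 19712 to 20034 in control ZT6 and 35762 to 37105 in Crx-/- ZT6; those of 8 astrocyte markers were 12334 to 12775 and 19063 to 24046, and those of 7 oligodendrocyte markers 5432 to 6244 and 8960 to 11435. The 12 pinealocyte markers summed to 69780 to 70243 in control ZT6 and 64416 to 68100 in Crx-/- ZT6, and of these Rcvrn was at background in 3 of the 4 groups. They include Crx itself, the deleted gene, so their sum is no independent measure of pinealocyte content. Of the 11 tested, 2 were higher and 3 lower over both times (45.5% against 43.5% of all genes), with a median log2 change of 0.028. For 14 brain neuron markers the ranges were 14671 to 14805 in control and 10969 to 14945 in Crx-/- glands by day, and 16159 and 16412 against 9228 to 10502 by night, where control ZT20 replicate 3 gave 10845, with Nefl, Calb2 and Gad2 at background in control ZT6. On control ZT20 replicate 3 the fibroblast, astrocyte and oligodendrocyte sums were 35102, 21159 and 9251, against at most 27046, 14672 and 6206 on its group mates and at least 33292, 19121 and 10136 in Crx-/- ZT20. Of the 11 neuron markers tested, 6 were higher and 3 lower in Crx-/- glands over both times. That is 81.8%, against 43.5% of all genes (25.3% higher, 18.1% lower), with a median log2 change of 1.32. The neuron sums weigh bright markers most, such as Map2 with log2 signals of 12.62 to 12.76 in control ZT6. They therefore need not follow these counts. The 5' to 3' probe set ratio of Gapdh was 0.59 to 0.636 in control ZT6 and 0.459 to 0.548 in Crx-/- ZT6. The part of cell makeup and of RNA quality in the results was not tested, and in whole glands fewer cells of a type and less RNA per cell cannot be told apart.

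Promoters are shown for the members with large genotype changes that had an entry in the RefSeq table (GRCm38.p6), as the 250 bases before the start site, 5′ to 3′ on the gene's strand. They are shown because Crx binds the motif TAATCC, and these windows hold no copy of it. Capitals mark its shorter core TAATC, or GATTA for the other strand. Where a gene has several start sites, a window with that core was chosen if there was one. Syt1 (chr10:109009112-109009361, minus strand) and Syt6 (chr3:103575032-103575281, plus strand) each hold it in the printed window, and the windows of Syt2 (chr1:134646362-134646611, plus strand), Stxbp6 (chr12:45074484-45074733, minus strand) and Stx1a (chr5:135023232-135023481, plus strand) do not.
Syt1: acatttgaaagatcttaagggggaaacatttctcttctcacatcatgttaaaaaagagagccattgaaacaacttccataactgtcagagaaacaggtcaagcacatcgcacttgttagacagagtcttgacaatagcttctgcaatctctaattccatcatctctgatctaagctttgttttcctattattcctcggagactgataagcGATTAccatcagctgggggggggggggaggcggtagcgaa
Syt6: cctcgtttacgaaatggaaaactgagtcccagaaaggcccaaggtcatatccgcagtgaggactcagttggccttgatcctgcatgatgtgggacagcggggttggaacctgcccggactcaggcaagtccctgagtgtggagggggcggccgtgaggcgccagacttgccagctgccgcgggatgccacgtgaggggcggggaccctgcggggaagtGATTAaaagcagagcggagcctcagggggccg
Syt2: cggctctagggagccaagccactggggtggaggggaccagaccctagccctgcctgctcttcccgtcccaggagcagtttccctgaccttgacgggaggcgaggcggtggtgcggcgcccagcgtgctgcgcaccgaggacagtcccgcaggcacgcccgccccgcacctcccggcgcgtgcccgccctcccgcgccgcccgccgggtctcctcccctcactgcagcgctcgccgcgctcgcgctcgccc
Stxbp6: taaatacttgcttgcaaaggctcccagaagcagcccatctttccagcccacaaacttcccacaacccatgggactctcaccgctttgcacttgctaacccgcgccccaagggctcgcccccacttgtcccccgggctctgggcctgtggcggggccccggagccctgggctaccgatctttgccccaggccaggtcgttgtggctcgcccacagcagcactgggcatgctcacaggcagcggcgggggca
Stx1a: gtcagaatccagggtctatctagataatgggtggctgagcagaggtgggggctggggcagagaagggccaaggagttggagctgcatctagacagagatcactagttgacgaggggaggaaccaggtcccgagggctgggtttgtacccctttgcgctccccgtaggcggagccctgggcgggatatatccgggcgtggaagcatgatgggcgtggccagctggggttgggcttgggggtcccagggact

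In all, 39 members matched the table, with 51 windows since some genes have several starts. TAATCC or its reverse complement GGATTA was found in 0 of the 51 windows and in 6.25% of the 32851 windows of all genes. TAATC or GATTA, which lies within the longer motif, was in 3 windows, those of Syt1, Syt6 and Stx19, and in 19.8% of all windows. The cAMP response motif TGACGTCA, the same on both strands, was in the windows of Syn1 and Stxbp3 and in 1.55% of all. The member windows had a median GC content of 61.2%, against 52.4% for all. A match is a description of the letters and no evidence of binding.

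Over both times, 8 of the 45 tested members rose and 12 fell in Crx-/- glands, which is 44.4%, near the 43.5% called among all 12379 genes. A call means an adjusted p under 0.05 in the fit across all genes. Among all genes 25.3% were called higher and 18.1% lower. The classes differed in their counts: of 19 tested neuronal exocytosis isoforms 4 rose and 9 fell (68.4%), with a median log2 change of -0.20, and of 22 trafficking isoforms 3 rose and 3 fell (27.3%), with a median of 0.06. The median of all genes was 0.04. These counts use the brightest probe set of each gene. For the trafficking genes Snap23, Snap29, Snap47, Stx8, Stx17, Stx18 and Stxbp4 it was not called, but a dimmer one was. The same held for Stxbp5 of the neuronal class. Without the array labelled control ZT20 replicate 3, 5 neuronal isoforms were higher and 9 lower (73.7%). Of the trafficking isoforms 5 were then higher and 6 lower (50%), against 55.9% of all genes (31.2% higher and 24.7% lower). The neuronal class holds Snap91, the clathrin adaptor, and Syt6, best known from the sperm acrosome, and both are among its lower members. The class difference is a description of the genes listed and was not tested.

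**Figure D1:**
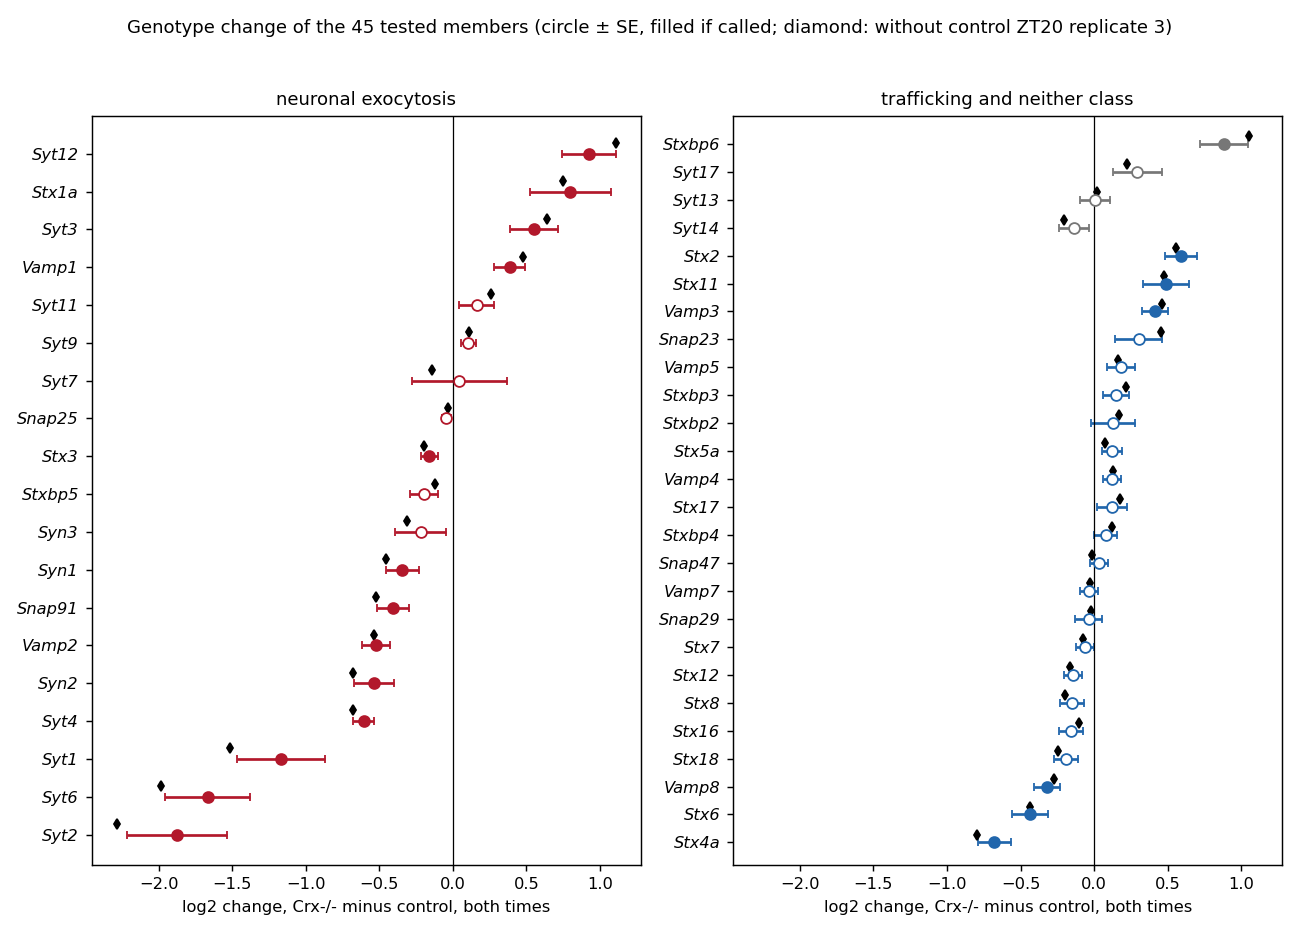
Genotype change of the 45 tested members, as the log2 difference of Crx-/- minus control over both times, with SE, by class (filled circles are called genes, diamonds leave out control ZT20 replicate 3). Syt2, Syt6 and Syt1 lie at the low end with -1.88, -1.67 and -1.17, while trafficking isoforms lie between -0.68 and 0.59 by their brightest probe sets.

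Of the calcium sensors of fast release, Syt1 and Syt2 fell in Crx-/- glands and Syt9 did not pass. Syt1, Syt2 and Syt9 are the synaptotagmins that trigger fast transmitter release. Syt2 had normalized log2 signals of 9.17, 9.25 and 9.02 in control and 6.61, 6.48 and 6.82 in Crx-/- glands by day, and 8.23, 8.40 and 5.94 against 6.41, 6.19 and 6.24 by night (replicates 1 to 3 of each group in order; day is ZT6 and night ZT20). Each Crx-/- array lay below all control arrays but the one labelled control ZT20 replicate 3, which was the lowest of the 12. The gene fell 3.67-fold over both times (log2 change -1.88 ± 0.34, adjusted p = 0.00138; here and below ± is the SE of the fit over the 12 arrays) and 5.69-fold at ZT6 (-2.51 ± 0.48, adjusted p = 0.00277). At ZT20 the difference was -1.24 ± 0.48 and did not pass (adjusted p = 0.0938); without control ZT20 replicate 3 it was -2.05 ± 0.18 and passed (adjusted p = 1.45e-06). All 3 kept probe sets of Syt2 were called lower over both times.

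For Syt1 the signals were 11.33, 11.57 and 11.65 in control and 9.98, 10.10 and 10.63 in Crx-/- glands by day, and 11.03, 10.89 and 8.91 against 9.50, 9.19 and 8.97 by night. Again control ZT20 replicate 3 lay with the Crx-/- arrays, and the genotypes did not overlap at ZT6. Syt1 fell 2.25-fold over both times (-1.17 ± 0.30, adjusted p = 0.00874) and was -1.28 ± 0.43 at ZT6 (adjusted p = 0.0377) and -1.06 ± 0.43 at ZT20 (adjusted p = 0.105). The call at ZT6 was lost when any one of control ZT6 replicates 1, 2 and 3, Crx-/- ZT6 replicates 1 and 2 or Crx-/- ZT20 replicate 2 was left out, with log2 changes of -1.37 to -1.15 and adjusted p of 0.0522 to 0.116. Without control ZT20 replicate 3 the changes were -1.29 at ZT6 and -1.75 at ZT20, and both passed (adjusted p = 4.42e-05 and 1.13e-05). Over both times the 3 other kept probe sets of Syt1 were lower too, 2 of them called. At ZT20 1 of them was not lower (0.188 ± 0.378, not called).

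Syt9 differed from these sensors. Its signals were 11.55, 11.66 and 11.60 in control and 11.71, 11.87 and 11.77 in Crx-/- glands by day, and 11.61, 11.56 and 11.60 against 11.69, 11.54 and 11.64 by night. The log2 difference of 0.10 ± 0.05 over both times did not pass (95% interval -0.01 to 0.22, adjusted p = 0.123), and the groups overlapped at ZT20.

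Syt6, a synaptotagmin best known from the sperm acrosome, also fell. It gave 9.34, 8.88 and 8.74 in control and 6.99, 7.05 and 6.77 in Crx-/- glands by day, and 7.51, 7.17 and 5.48 against 5.35, 5.61 and 5.36 by night. The genotypes did not overlap by day, and by night control ZT20 replicate 3 lay among the Crx-/- arrays. Over both times it fell 3.17-fold (-1.67 ± 0.29, adjusted p = 0.00113), and at ZT6 4.14-fold (-2.05 ± 0.41, adjusted p = 0.00344). At ZT20 the difference of -1.28 ± 0.41 did not pass (adjusted p = 0.0583), and it was -1.91 ± 0.22 and passed without control ZT20 replicate 3 (adjusted p = 2.32e-05).

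Syt4, a synaptotagmin of dense-core vesicles, gave 12.49, 12.55 and 12.60 in control and 11.68, 11.50 and 11.64 in Crx-/- glands by day, and 13.10, 13.04 and 12.67 against 12.72, 12.63 and 12.63 by night. By day the Crx-/- arrays were all lower than the control arrays, and by night control ZT20 replicate 3 lay among them. Syt4 fell by 0.61 on the log2 scale over both times (SE 0.07, adjusted p = 0.000225), and its change was -0.94 ± 0.10 at ZT6 (adjusted p = 0.000196) and -0.28 ± 0.10 at ZT20 (adjusted p = 0.0778). Without the array labelled control ZT20 replicate 3 the night difference was -0.41 ± 0.07 and passed (adjusted p = 0.000408). The dimmer kept probe set of Syt4 gave -1.63 ± 0.19 at ZT6, a larger fall, and -0.215 ± 0.193 at ZT20, which was not called.

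**Figure D2:**
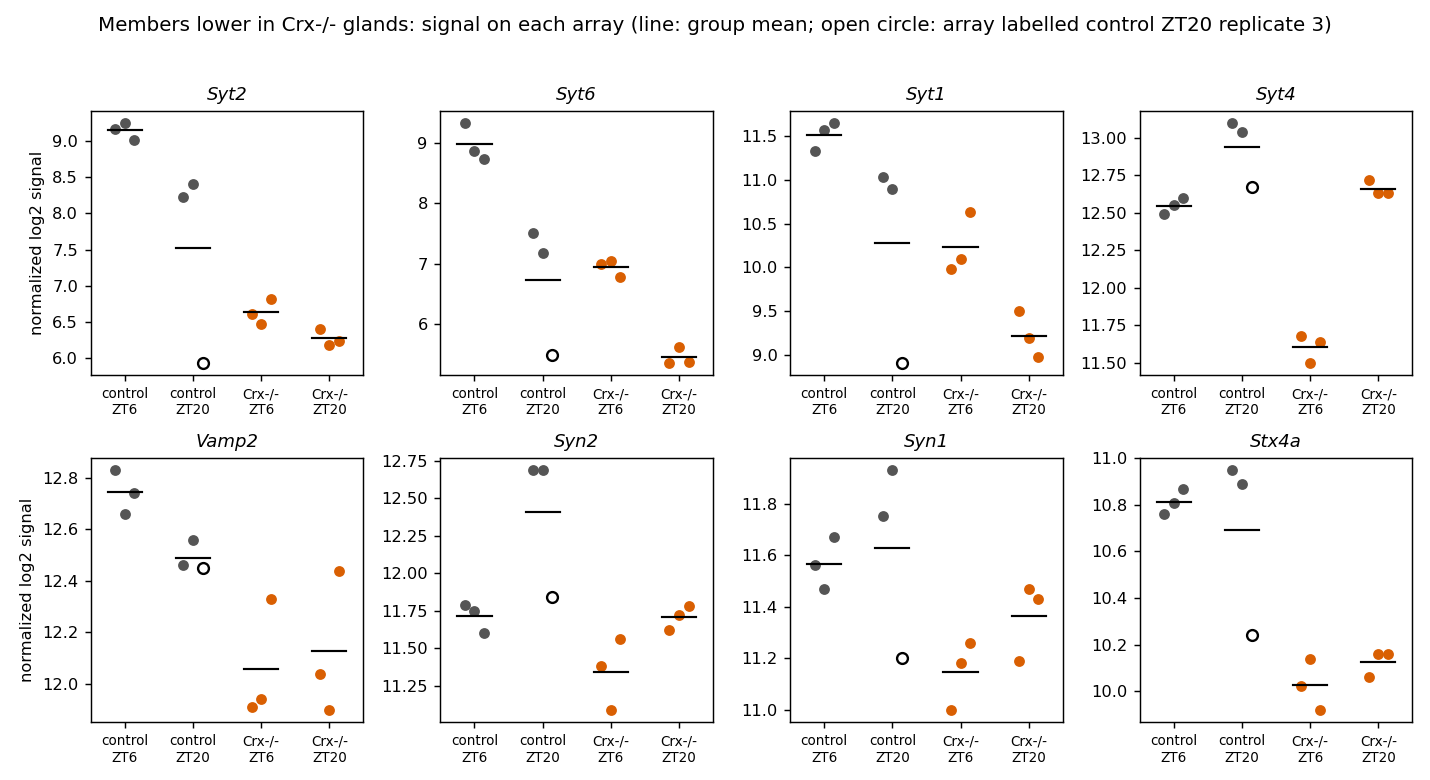
Normalized log2 signal on each of the 12 arrays for 8 members that were lower in Crx-/- glands (points are arrays, lines group means, and the open circle is the array labelled control ZT20 replicate 3). The open circle lies at or near the Crx-/- ZT20 arrays for each of the 8; for Vamp2 its 12.45 is also next to the 12.46 of its own group.

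The synapsins coat synaptic vesicles. Syn2 gave 11.79, 11.75 and 11.60 in control and 11.38, 11.09 and 11.56 in Crx-/- glands by day, and 12.69, 12.69 and 11.84 against 11.62, 11.72 and 11.78 by night. The genotypes did not overlap at either time. Syn2 fell by 0.54 on the log2 scale over both times (SE 0.14, adjusted p = 0.00826) and by 0.70 at ZT20 (SE 0.19, adjusted p = 0.0424), while -0.37 ± 0.19 at ZT6 did not pass (adjusted p = 0.158). The ZT20 call was lost in 9 of the 12 fits that left out 1 array, with adjusted p of 0.0572 to 0.162; those arrays were all 3 of control ZT6 and of Crx-/- ZT20, control ZT20 replicates 1 and 2 and Crx-/- ZT6 replicate 1, and the log2 change was -0.74 to -0.55. Without control ZT20 replicate 3 it was -0.99 ± 0.12 (adjusted p = 2.35e-05). All 6 kept probe sets of Syn2 were called lower over both times, with changes from -1.58 to -0.54, so the brightest one gave the least change.

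Syn1 signals were 11.56, 11.47 and 11.67 in control and 11, 11.18 and 11.26 in Crx-/- glands by day, and 11.75, 11.93 and 11.20 against 11.19, 11.47 and 11.43 by night. The genotypes did not overlap at ZT6 and overlapped at ZT20. Syn1 fell by 0.35 over both times on the log2 scale (SE 0.11, adjusted p = 0.0266). That call was lost without control ZT6 replicate 1 or 3, control ZT20 replicate 1 or 2, Crx-/- ZT6 replicate 1 or Crx-/- ZT20 replicate 1, each left out alone, with changes of -0.35 to -0.27 and adjusted p of 0.0503 to 0.0658; without control ZT20 replicate 3 it was -0.45 (adjusted p = 0.000165). Syn3 gave 7.37 to 7.40 in control and 7.05, 7.11 and 7.66 in Crx-/- glands by day, and 7.42, 7.37 and 6.84 against 6.80, 7.26 and 6.58 by night. Its groups overlapped at both times, and the log2 difference of -0.22 ± 0.17 did not pass (95% interval -0.59 to 0.15, adjusted p = 0.315).

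The 3 SNARE proteins of the classical synaptic complex did not move together. Snap25, which joins the vesicle and plasma membrane partners, varied between 13.59 and 13.77 on all 12 arrays, with 13.77, 13.77 and 13.66 in control and 13.73, 13.63 and 13.68 in Crx-/- glands by day, and 13.68, 13.61 and 13.70 against 13.61, 13.59 and 13.68 by night. The groups overlapped at both times, and the genotype difference was -0.04 ± 0.03 (95% interval -0.11 to 0.03, adjusted p = 0.277). Its other kept probe set gave -0.092 ± 0.045 and was not called. Snap25 was the brightest member, and whether the arrays compress changes at such bright signals was not tested.

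Vamp2, the main vesicle SNARE of synaptic vesicles, gave 12.83, 12.66 and 12.74 in control and 11.91, 11.94 and 12.33 in Crx-/- glands by day, and 12.46, 12.56 and 12.45 against 12.04, 11.90 and 12.44 by night. The genotypes did not overlap at either time, with control ZT20 replicate 3 just above the highest Crx-/- ZT20 array. Vamp2 fell by 0.53 on the log2 scale over both times (SE 0.10, adjusted p = 0.00142) and by 0.68 at ZT6 (SE 0.14, adjusted p = 0.00331); at ZT20 the change was -0.37 ± 0.14 (adjusted p = 0.0829) and passed, at -0.39, without that array (adjusted p = 0.0441). The dimmer kept probe set of Vamp2 fell by more, with -0.90 ± 0.19 over both times. In the limma fit of all kept probe sets it was called at ZT6 (-0.83, adjusted p = 0.0429) and at ZT20 (-0.98, adjusted p = 0.0454). Vamp1, the related synaptobrevin of motor and sensory neurons, went the other way. Its signals were 10.92, 10.94 and 10.66 in control and 11.08, 10.93 and 11.05 in Crx-/- glands by day, and 10.77, 10.57 and 11.20 against 11.62, 11.30 and 11.39 by night. The genotypes overlapped at ZT6 and did not at ZT20. Vamp1 rose by 0.39 ± 0.11 over both times (adjusted p = 0.0124) and by 0.59 ± 0.15 at ZT20 (adjusted p = 0.0365), while 0.18 ± 0.15 at ZT6 did not pass. Its ZT20 call was lost when any one of control ZT6 replicates 1 and 2, control ZT20 replicates 1 and 2, Crx-/- ZT6 replicate 1 or the 3 Crx-/- ZT20 arrays was left out, with changes of 0.45 to 0.66 and adjusted p of 0.0511 to 0.135; without control ZT20 replicate 3 the change was 0.77 (adjusted p = 0.000231).

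Stx1a, the plasma membrane syntaxin of neurons, gave 9.09, 9.17 and 9.0 in control and 9.67, 9.55 and 11.22 in Crx-/- glands by day, and 9.70, 9.62 and 9.31 against 10.80, 9.78 and 9.67 by night. In each Crx-/- group 1 array was more than 1 log2 unit above both others. On the array Crx-/- ZT6 replicate 3, 6 of the 14 neuron markers (Rbfox3, Camk2a, Tac1, Gad1, Gad2 and Thy1) were more than 1 log2 unit above both others of the group and the other 8 were not. Camk2a, a forebrain neuron kinase, gave 11.33 there and 7.30 to 7.58 on the others, while Map2, a neuronal cytoskeletal protein, gave 12.50 and 12.52 to 12.62. On Crx-/- ZT20 replicate 1 Camk2a was 7.86, against 7.17 and 7.44 on the others. The part of such neuron RNA in the Stx1a signal was not tested. Stx1a rose by 0.80 ± 0.27 over both times (adjusted p = 0.033). Leaving out Crx-/- ZT6 replicate 3 gave 0.53, still called, and leaving out Crx-/- ZT20 replicate 1 gave 0.62, which was not called (adjusted p = 0.0822). The call was also lost without any one of the control ZT6 arrays or control ZT20 replicate 2, at 0.78 to 0.82 (adjusted p of 0.0527 to 0.0635).

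Among the remaining neuronal isoforms Syt12 rose most. Syt12, an unusual synaptotagmin that binds no calcium, gave 7.61, 7.72 and 7.75 in control and 9.09, 9.23 and 8.83 in Crx-/- glands by day, and 7.73, 8.13 and 9.0 against 8.58, 8.79 and 8.97 by night. All Crx-/- arrays were above all control arrays except control ZT20 replicate 3. The gene rose 1.90-fold over both times (log2 change 0.92 ± 0.18, adjusted p = 0.00219) and 2.55-fold at ZT6 (1.35 ± 0.26, adjusted p = 0.00277); at ZT20 0.49 ± 0.26 did not pass (adjusted p = 0.193) and 0.86 ± 0.18 passed without that array (adjusted p = 0.00162). Syt3 rose by 0.55 ± 0.16 (adjusted p = 0.0159), with no overlap of the genotypes by day or by night. Snap91, the clathrin adaptor, fell by 0.41 (SE 0.11, adjusted p = 0.0106). Stx3, the syntaxin of retinal ribbon synapses, fell by 0.16 (SE 0.06, adjusted p = 0.0375), a call lost in 9 of the 12 fits that left out 1 array, all those but the ones without control ZT20 replicate 3, Crx-/- ZT20 replicate 2 or Crx-/- ZT20 replicate 3, with changes of -0.17 to -0.12. Syt7, Syt11 and Stxbp5 (tomosyn, an inhibitor of SNARE assembly) did not pass, with 0.04 ± 0.32, 0.16 ± 0.12 and -0.20 ± 0.09. Syt7 gave 8.84 on Crx-/- ZT6 replicate 3 and 6.93 to 7.44 on the others of that group, the same array on which Stx1a and Camk2a were high.

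**Figure D3:**
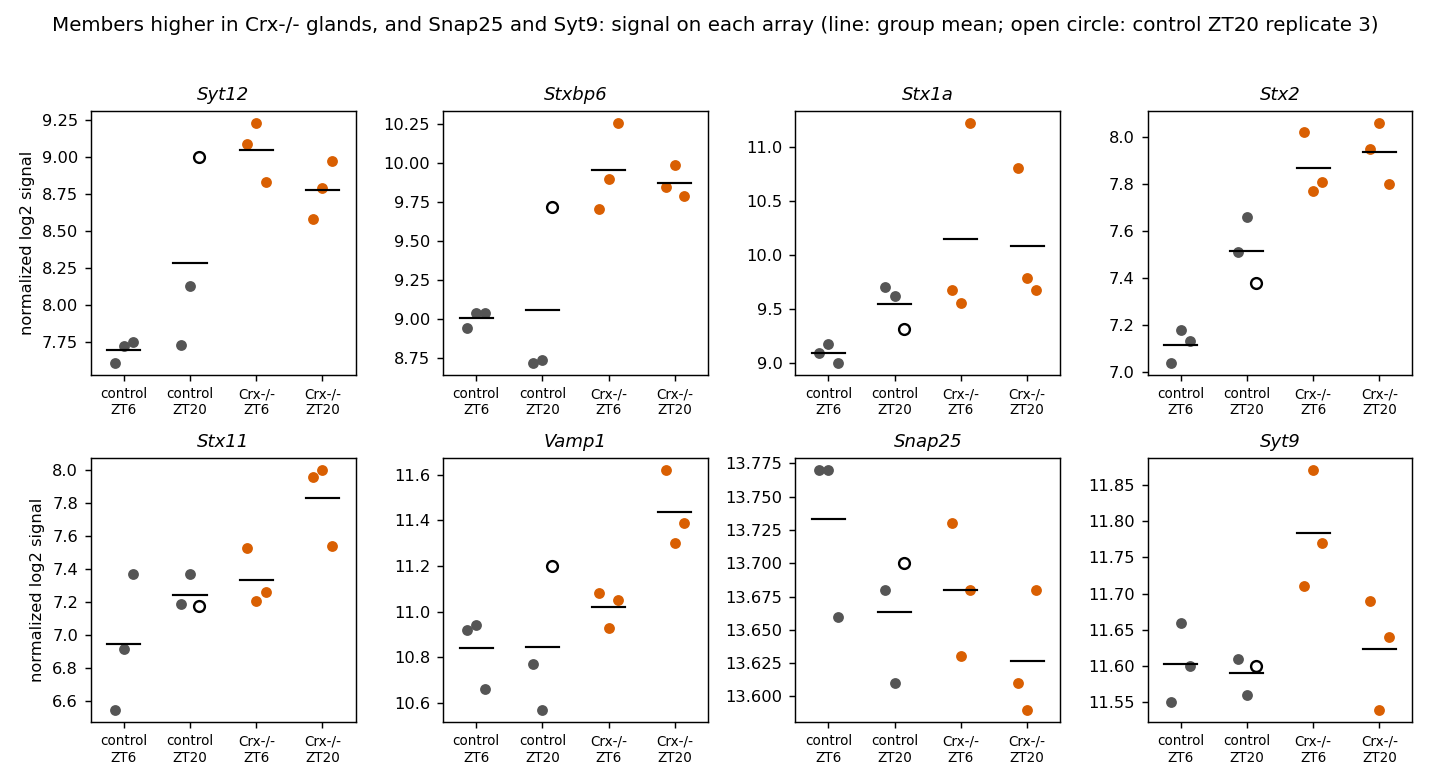
Normalized log2 signal on each array for 6 members that were higher in Crx-/- glands, and for Snap25 and Syt9, which were not called (symbols as in the plot of lower members; each panel has its own scale). Stx1a has 1 high array in each Crx-/- group, at 11.22 and 10.80.

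Trafficking isoforms moved in both directions. Stx4a, the plasma membrane syntaxin that receives glucose transporter vesicles in fat and muscle, gave 10.76, 10.81 and 10.87 in control and 10.02, 10.14 and 9.92 in Crx-/- glands by day, and 10.95, 10.89 and 10.24 against 10.06, 10.16 and 10.16 by night. The genotypes did not overlap at either time. Stx4a fell 1.60-fold over both times (-0.68 ± 0.11, adjusted p = 0.000923), by 0.79 at ZT6 (SE 0.16, adjusted p = 0.00368) and by 0.57 at ZT20 (SE 0.16, adjusted p = 0.0442). The ZT20 call was lost whenever an array other than control ZT20 replicate 3 was left out, with changes of -0.59 to -0.44 and adjusted p of 0.0546 to 0.169; without that array it was -0.80 (adjusted p = 4.58e-05). Stx6, a syntaxin of the trans-Golgi network, gave 10.40, 10.58 and 10.84 in control and 10.19, 10.65 and 10.02 in Crx-/- glands by day, and 10.54, 10.69 and 10.61 against 9.85, 10.31 and 10.03 by night. The groups overlapped at ZT6 and not at ZT20, and Stx6 fell by 0.43 over both times (SE 0.12, adjusted p = 0.0137). All 5 other kept probe sets of Stx6 had the same sign, 3 of them called. These gave -1.428, -0.892 and -0.745 over both times, larger falls than that of the brightest one. Vamp8, an endosomal SNARE, fell by 0.32 (SE 0.09, adjusted p = 0.0111).

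Stx2, a plasma membrane syntaxin also known as epimorphin, gave 7.04, 7.18 and 7.13 in control and 8.02, 7.77 and 7.81 in Crx-/- glands by day, and 7.51, 7.66 and 7.38 against 7.95, 8.06 and 7.80 by night. All 6 Crx-/- arrays were above all 6 control arrays, control ZT20 replicate 3 included. Stx2 rose 1.5-fold over both times (0.59 ± 0.11, adjusted p = 0.00157) and by 0.75 ± 0.16 at ZT6 (adjusted p = 0.004), with 0.43 ± 0.16 at ZT20 (adjusted p = 0.0803). Stx11, a syntaxin of cytotoxic lymphocytes and other immune cells, gave 6.55, 6.92 and 7.37 in control and 7.53, 7.21 and 7.26 in Crx-/- glands by day, and 7.19, 7.37 and 7.18 against 7.96, 8.0 and 7.54 by night. It overlapped at ZT6, and its rise of 0.49 ± 0.16 (adjusted p = 0.026) was lost without control ZT6 replicate 1 or 2, control ZT20 replicate 1, Crx-/- ZT6 replicate 1 or Crx-/- ZT20 replicate 1 or 2, with changes of 0.39 to 0.48 and adjusted p of 0.051 to 0.0666. Beside it, the 8 microglial markers summed to 8123 to 12904 in control ZT6 and 13462 to 15773 in Crx-/- ZT6, and their part in the Stx11 signal was not tested. Vamp3 (cellubrevin, of recycling endosomes) rose by 0.41 ± 0.09 (adjusted p = 0.0034) by its brightest probe set. Of its dimmer kept probe sets 2 were also called higher, at 0.47 and 0.42. The others, at 0.16 ± 0.14 and -0.90 ± 0.56, were not called. The mean of its probe sets gave 0.11 (adjusted p = 0.517).

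The other 16 tested trafficking isoforms were not called over both times, with changes from -0.19 ± 0.08 (Stx18, of the endoplasmic reticulum) to 0.30 ± 0.16 (Snap23, the Snap25 relative found in most cells). Without control ZT20 replicate 3, Snap23 and Stxbp3 were called higher and Stx8, Stx12 and Stx18 lower, with Snap23 at 0.45 (adjusted p = 0.00311) and Stx18 at -0.24 (adjusted p = 0.0104). For Snap47, Stx17 and Stxbp4 a dimmer probe set was called lower while the brightest gave 0.04, 0.12 and 0.08, so these genes are uncertain. So are Snap23, Snap29, Stx8, Stx18 and Stxbp5, where a dimmer probe set was called in the direction of the brightest one, which was not: Snap23 had one at 0.58 (adjusted p = 0.00225), Snap29 one at -0.67 (adjusted p = 0.0065), Stx8 one at -0.50 (adjusted p = 0.00398) and Stx18 had 3 of 4, at -0.53 to -0.35. Of 25 members with several kept probe sets 9 were called, and for 8 of these all other probe sets had the same sign; 0 had a call in the opposite direction.

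Stxbp6 (amisyn), which binds syntaxin and SNAP-25 without a membrane anchor of its own and restrains release, lies in neither class. It gave 8.94, 9.04 and 9.04 in control and 9.71, 9.90 and 10.26 in Crx-/- glands by day, and 8.72, 8.74 and 9.72 against 9.85, 9.99 and 9.79 by night. The genotypes did not overlap at either time, though control ZT20 replicate 3 at 9.72 lay just below the lowest Crx-/- ZT20 array at 9.79. Stxbp6 rose 1.84-fold over both times (0.88 ± 0.17, adjusted p = 0.00159), by 0.95 ± 0.23 at ZT6 (adjusted p = 0.00947) and by 0.82 ± 0.23 at ZT20 (adjusted p = 0.0451). The ZT20 call was lost whenever an array other than control ZT20 replicate 3 was left out, with changes of 0.65 to 0.86 and adjusted p of 0.0503 to 0.169; without that array it was 1.15 (adjusted p = 5.19e-05).

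By day 5 members rose (Syt12, Syt17, Stx2, Vamp3 and Stxbp6) and 7 fell (Syt1, Syt2, Syt4, Syt6, Vamp2, Vamp8 and Stx4a), 26.7% against 32% of all genes (18.9% higher, 13.1% lower). Of these, Syt17, an atypical synaptotagmin, rose by 0.83 ± 0.23, a call lost at 0.66 to 0.82 without control ZT6 replicate 1 or 3 or Crx-/- ZT6 replicate 2 or 3, and Vamp8 fell by 0.39 (SE 0.12), a call lost at -0.41 to -0.32 without any one of the control ZT6 arrays or Crx-/- ZT6 replicate 1 or 3. By night 2 rose (Vamp1 and Stxbp6) and 2 fell (Syn2 and Stx4a), 8.89% against 11.7% (6.86% higher, 4.8% lower). Same-numbered arrays of the 2 night groups deviated together (correlations of 0.126 to 0.176), so the night comparison was also fitted with the replicate number as a block. In the fit of all 12 arrays the block gave 5 members: Syt6 (adjusted p = 0.0481) and Stx6 (adjusted p = 0.0486) were added and Syn2 was lost (adjusted p = 0.0517). In a blocked fit of the 6 night arrays alone limma called 0 members and 0 genes, with an adjusted p of 0.19 for Vamp1, Stxbp6, Syn2 and Stx4a, and at an unadjusted p under 0.05 there were 11 members, 24.4% against 24% of all genes. The night count depended on the array labelled control ZT20 replicate 3: without it 6 rose and 12 fell, 40% against 43.7% of all genes (24.1% higher, 19.6% lower), of which 3 and 9 were among the 19 neuronal isoforms and 2 and 3 among the 22 trafficking isoforms. By day, without that array, 9 rose and 13 fell, 48.9% against 43.5% (24.8% higher, 18.8% lower). Of 27 members whose other ZT20 arrays did not overlap between genotypes, the value on that array lay nearer the Crx-/- mean for 21, as for 73.5% of all such genes. Arrays of the genotypes did not overlap at either time for 3 higher members (Stx2, Stxbp6, Syt3) and 3 lower ones (Vamp2, Syn2, Stx4a); among all genes this held for 10% higher and 6.06% lower.

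**Figure D4:**
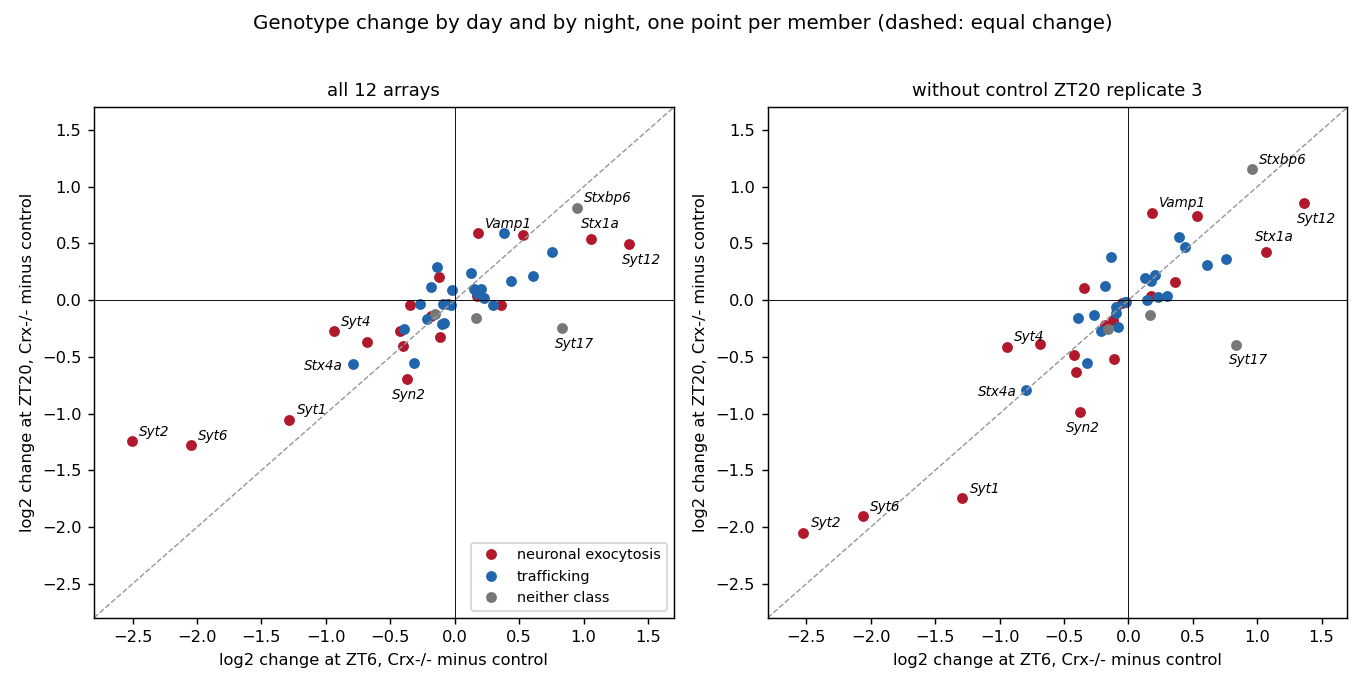
Log2 genotype change at ZT20 against that at ZT6, 1 point per tested member, with all 12 arrays on the left and without control ZT20 replicate 3 on the right; points on the dashed line changed equally. Syt2 moves from -1.24 to -2.05 on the vertical axis when that array is left out, and Syt17 lies below the line in both panels.

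Between day and night, 5 members rose and 3 fell in control glands, 17.8% against 16.1% of all genes (7.11% higher, 9.03% lower), and 5 rose and 5 fell without control ZT20 replicate 3, 22.2% against 25.1% (12% higher, 13.1% lower). Syt6 had the largest fall by night, -2.27 ± 0.41 (adjusted p = 0.00356), or -1.66 ± 0.22 without control ZT20 replicate 3 (adjusted p = 0.000167). Syt2 fell by 1.62 (SE 0.48, adjusted p = 0.0387), a value that control ZT20 replicate 3 moved by over 1.5 times: without it the change was -0.83 ± 0.18 (adjusted p = 0.00379). With that array kept, the Syt2 call was lost in 9 fits that left out another array (the 3 of control ZT6, of Crx-/- ZT6 and of Crx-/- ZT20), with changes of -1.68 to -1.57 and adjusted p of 0.0522 to 0.107. Stxbp4, which binds Stx4 and takes part in glucose transporter delivery, fell by 0.35 at night (SE 0.11, adjusted p = 0.048), and was -0.44 without control ZT20 replicate 3 (adjusted p = 0.0109); its call too was lost without any one of 9 arrays (all but control ZT20 replicate 3, Crx-/- ZT6 replicate 2 and Crx-/- ZT20 replicate 1), at -0.38 to -0.29.

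Of the night risers in control glands, Syt13, an atypical synaptotagmin, went from 9.21 to 9.38 by day to 9.99 to 10.11 by night, with no overlap (0.76 ± 0.15, adjusted p = 0.00516). Syn2 rose by 0.69 ± 0.19 (adjusted p = 0.0309), and by 0.98 ± 0.12 without control ZT20 replicate 3 (adjusted p = 6.4e-05). Leaving out control ZT6 replicate 1, 2 or 3 or control ZT20 replicate 1 or 2 ended the Syn2 call, at 0.54 to 0.73 and adjusted p of 0.0714 to 0.105, and the mean of its probe sets gave 0.48 (adjusted p = 0.406). Syt4 rose by 0.39 ± 0.10 (adjusted p = 0.0205); its call was lost without control ZT6 replicate 1 or 2 or control ZT20 replicate 1 or 2, at 0.30 to 0.39. Vamp4, a SNARE of the trans-Golgi network, rose by 0.37 ± 0.08 (adjusted p = 0.0118), lost at 0.35 without control ZT6 replicate 3. Snap29, a SNARE of autophagosome fusion, rose by 0.43 ± 0.13 (adjusted p = 0.0433), lost in 9 fits that left out 1 array, all but those without control ZT6 replicate 2, Crx-/- ZT6 replicate 1 or Crx-/- ZT20 replicate 1, at 0.36 to 0.44.

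In Crx-/- glands 1 member changed with time, 2.22% against 1.57% of all genes (0.695% higher, 0.872% lower). Syt4 rose by 1.05 ± 0.10 at night (adjusted p = 0.000261), from 11.50 to 11.68 by day to 12.63 to 12.72. Syt6 was -1.50 ± 0.41 in these glands and did not pass (adjusted p = 0.109), although its 5.35 to 5.61 by night lay wholly below its 6.77 to 7.05 by day. Leaving out control ZT20 replicate 3 gave 4 calls, 8.89% against 6.13% of all genes (2.6% higher, 3.53% lower): Syt4 and Vamp1 (0.42 ± 0.11, adjusted p = 0.0367) higher and Syt6 (adjusted p = 0.000475) and Syt1 (-1.02 ± 0.17, adjusted p = 0.00243) lower.

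Whether the genotype difference itself changed with time was tested by the interaction. With all 12 arrays limma called 0 of the 45 members, and 0.234% of all genes (0.113% positive, 0.121% negative); at an unadjusted p under 0.05 it was 6 members, 13.3% against 13.6% of all genes. Syt4 came nearest, at 0.66 ± 0.14 (adjusted p = 0.0674). Without control ZT20 replicate 3, 4 members were called, 8.89% against 6.16% of all genes (2.26% positive, 3.9% negative): Syt4 and Vamp1 with positive and Syn2 and Syt17 with negative values.

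**Figure D5:**
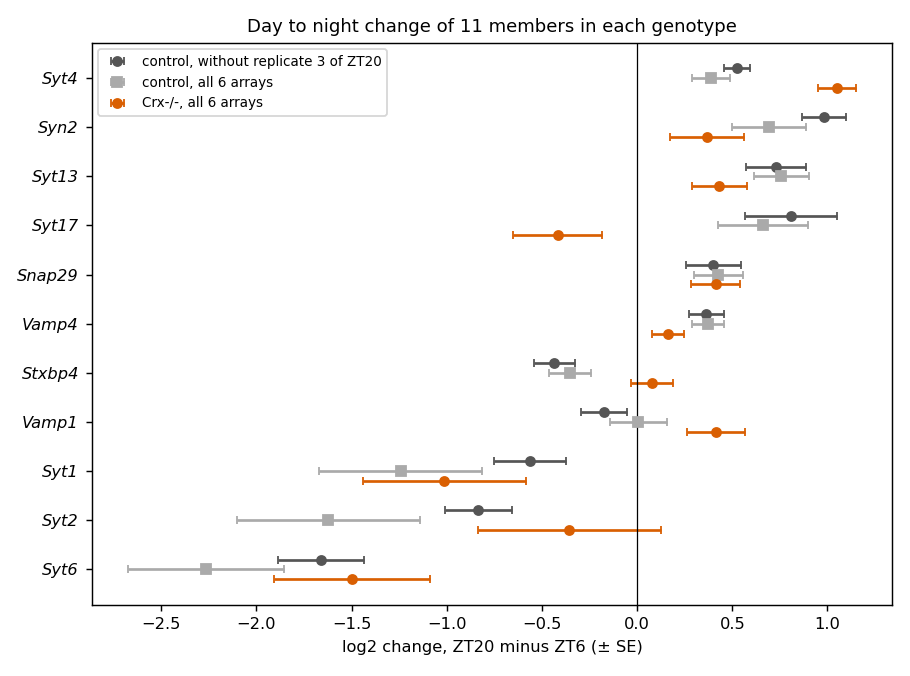
Log2 change from ZT6 to ZT20 (with SE) of 11 members in control glands, with all 6 arrays (squares) and without replicate 3 of ZT20 (dark circles), and in Crx-/- glands (orange). Syt4 rises in both genotypes, by 0.39 and 1.05, and Syt6 lies at -2.27 and -1.50.

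Genes that work beside these proteins also changed in both directions. Of 35 tested regulators of release 9 rose and 13 fell over both times (62.9%, against 43.5% of all genes), and 11 and 16 without control ZT20 replicate 3 (77.1% against 55.9%). Cadps, which primes dense-core vesicles, rose by 1.95 ± 0.32 (adjusted p = 0.000813) and the priming factor Unc13c by 1.13 ± 0.16 (adjusted p = 0.000477), while Cplx2, a complexin that clamps the SNARE complex, fell by 1.52 (SE 0.42, adjusted p = 0.0118) and Snph, a syntaxin-binding protein that anchors mitochondria in axons, by 1.46 (SE 0.28, adjusted p = 0.00178). Of 13 vesicle membrane proteins 3 rose and 4 fell (53.8% against 43.5% of all genes), and 4 and 5 without that array (69.2% against 55.9%). Syngr3, a synaptogyrin, fell from 11.24 to 11.43 in control ZT6 to 6.49 to 7.52 in Crx-/- ZT6 (-3.76 ± 0.70 over both times, adjusted p = 0.00161), a larger change than that of any member tested; by night control ZT20 spanned 5.95 to 11.11. That array moved the fold of Syngr3 by over 1.5 times: without control ZT20 replicate 3 the log2 change was -4.63, while Cadps gave 2.31 and Cplx2 -1.95. Synpr (synaptoporin) rose by 2.30 ± 0.33 (adjusted p = 0.000467), Sv2a, a vesicle glycoprotein, by 0.88 ± 0.24 (adjusted p = 0.0115) and Slc17a7, a vesicular glutamate transporter and one of the neuron markers, by 0.74 ± 0.18 (adjusted p = 0.00586).

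Of 20 tested genes of vesicle recycling 5 rose and 6 fell (55% against 43.5% of all genes). Without control ZT20 replicate 3 it was 5 and 7 (60% against 55.9%). The membrane-bending endophilins Sh3gl2 and Sh3gl3 rose by 0.68 ± 0.09 and 0.63 ± 0.20 (adjusted p = 0.00034 and 0.0262), the second lost without control ZT6 replicate 2 or 3, control ZT20 replicate 2, Crx-/- ZT6 replicate 3 or Crx-/- ZT20 replicate 2 or 3, at 0.53 to 0.62. The amphiphysins Bin1 and Amph fell by 0.70 and 0.62 (SE 0.14 for each, adjusted p = 0.00213 and 0.00514). Of 15 other trafficking SNARE and Sec1/Munc18 genes 0 rose and 4 fell (26.7% against 43.5% of all genes). Without control ZT20 replicate 3 it was 1 and 4 (33.3% against 55.9%). In the fit of all 12 arrays the falls were 0.38 (Vti1a), 0.36 (Use1), 0.32 (Gosr1) and 0.28 (Vps45) on the log2 scale. All 4 lost their call with the signals as deposited, at -0.26 (Use1), -0.19 (Vti1a), -0.15 (Gosr1) and -0.11 (Vps45), as did Bin1 at -0.54 (adjusted p = 0.0845) and Sh3gl3 at 0.85 (adjusted p = 0.0627). The Vti1a call was lost in 7 of the 12 fits that left out 1 array, at -0.38 to -0.32 (control ZT6 replicates 1 and 2, control ZT20 replicates 1 and 2, Crx-/- ZT6 replicate 3, Crx-/- ZT20 replicates 1 and 2), and the Vps45 call without control ZT6 replicate 1, at -0.24.

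The authors' deposited tables of genes changed in Crx-/- glands regardless of time hold 4 members. In the authors' deposited table of 714 rows for higher genes Syt12 has a log2 fold change of 1.14. In the authors' deposited table of 512 rows for lower genes Syn2 has -1.69, Syt2 -1.47 and Syt1 -1.38. Each has the same direction in the authors' deposited table as in the fit, where the brightest probe set of Syn2 gave -0.54.

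Of the members that did not pass the filter, Syt10 gave 5.45 to 5.84 in control and 3.88 to 4.70 in Crx-/- glands by day, and 6.53 to 6.72 against 5.95 to 6.97 by night, so that its night arrays lay above its day arrays in each genotype; it was not tested. Syt16 was at 1.84 to 3.41 on 11 arrays and at 6.67 on Crx-/- ZT6 replicate 3. Syt5 gave 2.89 to 3.22 in control ZT6 and 4.28 to 6.27 on the other 9 arrays. Syt8 stayed between 4.60 and 5.76 and Stx19 between 3.28 and 5.16. Some of these values were at background. Syt10 was above it on 1 of the 3 Crx-/- ZT6 arrays, and Stx19 on 2 of the 3 control ZT20 arrays. Syt5 was above it on 0 of 3 arrays in control ZT6 and 2 of 3 in Crx-/- ZT6. Syt16 was above it on 1 of 3 arrays in Crx-/- ZT6 and on 0 in each other group.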

How the data were processed

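Pineal RNA of 12 samples was amplified and hybridised to Affymetrix mouse arrays, per the labels' protocols. Per the submitters' processing notes GCOS was used (version not given in the sources used here), and the deposited values are the linear signal intensity of each probe set. The authors' deposited tables of changed genes, made with ChipInspector 2.1 per the series' design text, hold the log2 fold change of the genotypes regardless of time and its linear form, a score with a minus sign for lower genes.

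Quantile normalization of the deposited intensity was done over the probe sets other than 64 control features of 45101, and log2(signal + 3.4) was used, 3.4 being the 10th percentile; a log2 change on this scale understates that of dim genes. Probe sets at or above their array's median on at least 3 arrays (24273) were kept, and the brightest kept one per gene was tested. Gene symbols came from the platform annotation (34945 probe sets with 1 symbol, 932 with several, 9160 with none; the last 2 kinds were not tested), checked by gene ID against the GRCm38.p6 table. The model of 1 mean per group was fitted in R 4.3.3 with limma 3.58.1 (trend in the prior variance) over the 4 groups of 3 arrays, with two-sided tests and Benjamini-Hochberg adjustment over 12379 genes. Tables and plots used Python 3.11.15, pandas 2.3.3 and matplotlib 3.10.9. On simulated data with independent log2 values and a genotype change alone, the fit over both times recovered known changes. The simulation held no deviating array, no shared replicate deviation and no normalization step. It did not cover the ZT20, time or interaction comparisons. A group counted as at background when its arrays lay at or below the highest of 27 Bacillus control probe sets (16.4 as deposited).

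The members and lists were chosen with earlier results of these data known. Members named with every array are the core neuronal isoforms, called members with a log2 change of at least 1, and the 4 called members of largest change in each class; of each companion list the 4 called genes of largest change are named. Replicates are those of the labels; 0 pairs of arrays held identical values. The labels give no source for the shared numbers. Deviations from group means correlated over 0.1 in every same-numbered pair for control ZT20 with Crx-/- ZT20 (0.126 to 0.176, other pairs -0.168 to 0.04). This did not hold for the other pairs of groups (-0.257 to 0.208), so the block is given for the night comparison. For Crx-/- ZT6 with Crx-/- ZT20 the same-numbered pairs (0.057 to 0.173) also lay above the other pairs (-0.137 to 0.051). With the block in the fit of all arrays, time in Crx-/- had 1 member called, as in the main setting. Alternatives were other scaling, the signals as deposited, another pseudocount, other filters, the mean of a gene's probe sets, no variance trend, a replicate block and each array left out in turn; the position of control ZT20 replicate 3, a blocked fit of the night arrays and the motifs TAATC and TGACGTCA were added after seeing the data.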

Additional observations from a re-analysis of the deposited data

Results flagged for a closer look

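Without the array labelled control ZT20 replicate 3, the genotype difference of 4 members changed between day and night by the interaction test (value at ZT20 minus value at ZT6, limma, adjusted over 12368 genes). For Syt4 the interaction was 0.533 ± 0.093 (adjusted p = 0.00596): the genotype difference was -0.94 by day and -0.41 by night. For Vamp1 it was 0.59 ± 0.16 (adjusted p = 0.0484), from 0.18 to 0.77. For Syn2 it was -0.61 ± 0.16 (adjusted p = 0.036), from -0.38 to -0.99. For Syt17 it was -1.228 ± 0.325 (adjusted p = 0.0422), from 0.84 to -0.39; its Crx-/- arrays gave 7.21, 7.89 and 8.06 by day and 7.48, 7.29 and 7.13 by night, and its control arrays 6.74 to 7.07 by day and 7.26 to 7.75 by night. With all 12 arrays none of these 4 passed, with interaction values of 0.66, 0.41, -0.32 and -1.08 in the same order and adjusted p of 0.0674, 0.429, 0.647 and 0.184.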

How the results depend on the processing

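Each of the 6 comparisons was recomputed under 8 other settings and with each of the 12 arrays left out. No call of a named gene reversed in sign. Of the values of named genes, 458 kept their side of the threshold and 54 lost a call under the other settings, and 637 and 131 did so when 1 array was left out. With the signals as deposited, the calls numbered 2738 for genotype over both times, 1272 at ZT6, 72 at ZT20, 535 for time in control, 60 for time in Crx-/- and 4 for the interaction, and members called were 7 at ZT6, 0 at ZT20 (4 in the main setting) and 3 for time in control. In that setting the members Stx11, Stx6, Syn1, Syt3, Vamp8 and Stx3 and the companion genes Bin1, Sh3gl3, Use1, Gosr1, Vps45 and Vti1a lost their call over both times. With no filter on dim probe sets the calls were 765 at ZT20 and 1 for the interaction, with 1 member at ZT20 and 2 for time in Crx-/-; with no variance trend they were 948 at ZT20, with 2 members. The mean of a gene's probe sets gave 56 interaction calls, 1 of them a member. The cause was not tested. With 1 array left out, calls ranged from 4419 to 6916 for genotype over both times, 2567 to 5384 at ZT6, 0 to 5406 at ZT20, 953 to 3105 for time in control, 84 to 758 for time in Crx-/- and 0 to 762 for the interaction. Members called ranged from 16 to 26, 9 to 22, 0 to 18, 3 to 10, 1 to 4 and 0 to 4 in the same order. The median of the neuronal class minus that of the trafficking class (-0.253) ranged from -0.299 to -0.204 when 1 array was left out; it was -0.165 with the mean of a gene's probe sets and -0.341 with the neuronal core list. With the replicate number as a block in the fit of all arrays the interaction had 1 call and members had the counts of the main setting to within 1.5 times; the block in a fit of the ZT20 arrays alone, added after seeing the data, gave 0 calls at ZT20 and 0 members, with fewer arrays to estimate the spread. Arrays of 3 per group limit the precision, and 5 members were too dim to test.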
